A study of Mus musculus with 24 samples.

Results

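The amino acid response is a gene programme that supplies cells with amino acids and charges their tRNAs, and 39 of its genes were examined among the 45706 genes counted in mouse embryonic fibroblasts, connective tissue cells grown from E13.5 embryos. The genes were taken by symbol from known members of the pathway. They and the related lists below were chosen with earlier results of these data known. Their shares beside those of all tested genes can therefore reflect that choice. The set held 6 regulators and feedback genes, 7 enzymes of serine, glycine and folate metabolism, and 4 enzymes of proline, asparagine and cysteine synthesis. It also held 7 amino acid transporters, 4 secreted factors and other targets, and 11 cytosolic tRNA synthetases. RNA-seq libraries of total RNA came from 4 genotypes, each with 3 libraries labelled Cre (given as knockout) and 3 labelled GFP (given as control). The groups were Vhl Cre and Vhl GFP, Vhl/Rassf1a Cre and Vhl/Rassf1a GFP, Rassf1a Cre and Rassf1a GFP, and wild-type cells (WT) as WT Cre and WT GFP, which also stand as knockout and control in the labels although no altered gene is named for them. Cells of all 8 groups shared their source and culture type. No label tells the way Cre or GFP entered the cells, the exons removed, or whether the replicates of a group were separate embryos or cultures, so the p-values below cover the spread among these libraries and no more.

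When a cell runs short of amino acids, uncharged tRNA activates the kinase GCN2, which phosphorylates the translation factor eIF2. General protein synthesis then falls, while the mRNA of the transcription factor ATF4 is translated more, so that ATF4 is regulated largely after transcription. ATF4 binds, as a dimer with C/EBP-family or related factors, to C/EBP-ATF response elements in the genes of amino acid synthesis, uptake and tRNA charging. VHL is the substrate receptor of the ubiquitin ligase that destroys hypoxia-inducible factors in the presence of oxygen, and RASSF1A is a scaffold protein of the Hippo and microtubule pathways; both are tumour suppressors of clear cell renal carcinoma.

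The core letters of the response element, TGATG followed by any base and AA, were searched on both strands of the RefSeq promoter windows (GRCm38.p6, 250 bases before to 50 after each gene's start). They were present for 11 of the 30 genes that had a window (36.7%), against 4.51% of the 27025 genes with a window in the genome. The set was made of known members of the pathway, so this contrast can follow from that choice. By role, the core was found for 5 of 7 synthetases, 2 of 3 enzymes of the proline, asparagine and cysteine group, 2 of 6 regulators, 1 of 5 transporters, 1 of 3 secreted factors and other targets, and 0 of 6 enzymes of the serine and folate group. Of related genes outside the set, 0 of 8 other cytosolic and 0 of 14 mitochondrial synthetases held it. A match for each of the 11 genes is shown because its letters are the core of the element named above, each with 10 bases on either side and the core in capitals, on the strand that carries it. A match is a description of letters, not a bound site.
Trib3, chr2:152344029-152344056, plus strand: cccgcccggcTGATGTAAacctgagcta
Chac1, chr2:119351039-119351066, minus strand: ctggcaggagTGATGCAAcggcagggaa
Asns, chr6:7693215-7693242, minus strand: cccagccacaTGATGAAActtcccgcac
Pycr1, chr11:120643834-120643861, minus strand: gccctgtgtaTGATGCAAtgcacaaggc
Slc1a4, chr11:20332700-20332727, plus strand: aggctggagaTGATGCAAcgcaggaggc
Fgf21, chr7:45615612-45615639, plus strand: cctggacggaTGATGCAAtgggggggtc
Aars, chr8:111033841-111033868, minus strand: cagagcgctcTGATGAAAagtgacccgc
Gars, chr6:55037961-55037988, minus strand: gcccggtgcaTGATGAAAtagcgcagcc
Iars, chr13:49682127-49682154, minus strand: cgtctggaggTGATGCAAtactgacagt
Tars, chr15:11399656-11399683, plus strand: gctaaccagcTGATGCAAcgggactcct
Yars, chr4:129189896-129189923, plus strand: cgagctcagcTGATGCAAcccgacggga

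Libraries held 29934173 to 55849586 counts, and levels are given as CPM, counts scaled to a common library size after TMM normalization. Of the 39 genes, 38 passed the filter on low counts; Fgf21, a secreted metabolic hormone, had 69 counts in all 24 libraries and was not tested. Vhl itself averaged 2.57 ± 0.257 CPM in Vhl Cre and 26.7 ± 0.972 in Vhl GFP cells, and 2.10 ± 0.523 in Vhl/Rassf1a Cre and 22.0 ± 1.59 in Vhl/Rassf1a GFP cells (SD, n = 3 each). Rassf1 stood at 26.6 ± 1.25 CPM in Rassf1a Cre and 27.9 ± 2.90 in Rassf1a GFP cells (SD, n = 3 each). It was higher with Cre in Vhl cells, at 43.8 ± 1.00 CPM against 26.6 ± 2.49 CPM (log2 fold change 0.72, edgeR adjusted p = 9.51e-07). So it was in Vhl/Rassf1a cells, at 45.2 ± 2.11 CPM with Cre against 32.6 ± 3.95 CPM with GFP (log2 fold change 0.47, edgeR adjusted p = 2.8e-04). Since Rassf1a is 1 of the transcript forms of that gene, its total does not check the label. All 10 fibroblast markers were detected, with a summed level of 39160 to 59560 CPM. Replicate 1 of Rassf1a GFP and replicate 2 of Vhl/Rassf1a GFP stood apart, with deviations from their group that followed the GC content of the genes (r = 0.802 and 0.811 across 10516 genes, which are not independent). The set's median GC content was 52.88%, against 49.69% for tested genes, and its median deviation was 0.12 and 0.13 log2 units in these libraries. Most counts of calls that rest on them are therefore given with and without both, while shares of genes without overlap are given with both only. Exons of 9 genes (Aars, Aldh1l2, Atf5, Cars, Ddit3, Psph, Shmt2, Slc6a9 and Yars) overlap a gene on the opposite strand, by 1258 bases at most for Slc6a9, 1056 for Aldh1l2 and 452 for Psph, and by 211 or fewer for the others; the strand setting of the counting is not given, so such reads cannot be told apart.

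Most of the genes were lower in Cre than in GFP cells where Vhl was altered. In Vhl Cre cells 25 of the 38 fell and 3 rose relative to Vhl GFP (edgeR quasi-likelihood test, adjusted p under 0.05), where 18.7% of all 16573 tested genes fell and 17.4% rose. In Vhl/Rassf1a Cre cells 34 fell and 1 rose relative to Vhl/Rassf1a GFP, against 14.8% and 14.9% of all tested genes. The median log2 fold change of the 38 was -0.25 in Vhl and -0.53 in Vhl/Rassf1a cells, and the median of all tested genes lay within 0.014 of 0 in each of the 11 comparisons made. The Cre and GFP values did not overlap for 81.6% of the 38 genes in Vhl cells, where 52.7% of all tested genes had no overlap, and for 89.5% in Vhl/Rassf1a cells, where 39.1% had none. Without both libraries that stood apart, 34 genes fell and 3 rose in Vhl/Rassf1a cells, with a median of -0.49; log2 fold changes were then -0.77 for Trib3, -0.99 for Chac1, -0.93 for Phgdh, -1.02 for Asns, -1.78 for Slc7a5 and -0.66 for Aars, and the number of falls in each role was the same. In bulk RNA, fewer cells of a type and less RNA per cell cannot be told apart.

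**Figure D1:**
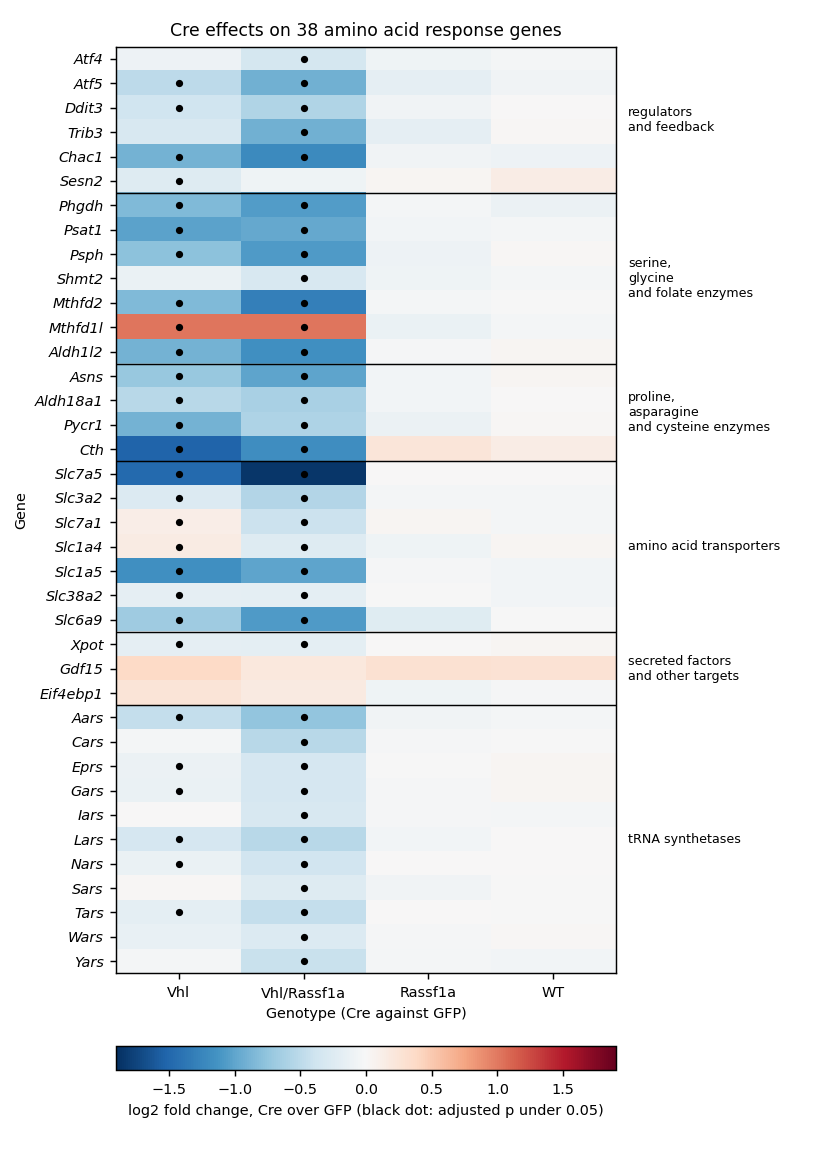
Heat map of the log2 fold change of Cre over GFP (colour) for each of 38 genes (rows, grouped by role) in the 4 genotypes (columns). Black dots mark adjusted p under 0.05. Most genes are negative in the Vhl and Vhl/Rassf1a columns, where Mthfd1l is strongly positive, and no gene has a dot in the Rassf1a and WT columns.

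Summed markers of several cell types moved along with these comparisons, some up and some down. Few abundant genes carry most of these sums, so a sum can move without the rest of its list. By median CPM over the 24 libraries, Krt19 (66.8) led the epithelial list, Acta1 (160) skeletal muscle and Aqp1 (258.7) proximal tubule. Col2a1 (325.5) led cartilage, Nes (311.6) the neural list, and Fn1 (14390) and Col1a1 (13600) the fibroblast list. The summed level of 7 epithelial markers was 126.7 to 147 CPM in Vhl Cre and 37.8 to 38.9 CPM in Vhl GFP libraries. It was 194 to 201.3 CPM in Vhl/Rassf1a Cre and 75.5 to 97.3 CPM in Vhl/Rassf1a GFP libraries. Epcam and Cdh1, the defining members of that list, were under 1 CPM in every library. The 5 skeletal muscle markers summed to 376.8 to 454.6 CPM in Vhl Cre and 134.1 to 151.5 CPM in Vhl GFP. They summed to 462 to 485.3 CPM in Vhl/Rassf1a Cre and 192.4 to 242.7 CPM in Vhl/Rassf1a GFP. Myod1, Myog and Myh3 of that list were under 1 CPM in every library. Endothelial markers summed to 11.9 to 13.1 CPM in Vhl Cre and 5.55 to 6.75 CPM in Vhl GFP. Their sums were 12.8 to 14.4 CPM in Vhl/Rassf1a Cre and 11.6 to 12.5 CPM in Vhl/Rassf1a GFP, with 3 of 6 under 1 CPM in every library. The 4 neural markers were also higher, at 399.9 to 431.7 CPM in Vhl Cre and 352.2 to 372.9 CPM in Vhl GFP. They stood at 451.9 to 485.8 CPM in Vhl/Rassf1a Cre and 367.3 to 426.9 CPM in Vhl/Rassf1a GFP, with Sox2 and Sox10 under 1 CPM in every library. The fibroblast markers were lower in Vhl cells, at 46690 to 50250 CPM in Vhl Cre and 57230 to 59560 CPM in Vhl GFP. They overlapped in Vhl/Rassf1a cells, at 39850 to 43410 CPM with Cre and 39160 to 48410 CPM with GFP. The 4 cartilage markers behaved in the same manner, at 508.3 to 613.8 CPM in Vhl Cre and 639.1 to 781.9 CPM in Vhl GFP. Their Vhl/Rassf1a sums were 358.6 to 384.2 CPM in Vhl/Rassf1a Cre and 324.8 to 487 CPM in Vhl/Rassf1a GFP. In Vhl/Rassf1a cells the sum of 6 proximal tubule markers was lower, at 269.4 to 279.2 CPM with Cre and 331.7 to 355.3 CPM with GFP. It was also lower in WT cells, at 242.8 to 264.2 CPM with Cre and 312.2 to 348.8 CPM with GFP. The same held in Rassf1a cells, at 278.7 to 304.5 CPM with Cre and 327.4 to 367.3 CPM with GFP. Of the 6 markers, 3 were under 1 CPM in every library. The sum of 7 macrophage markers was higher in Vhl/Rassf1a cells, at 7.61 to 8.53 CPM with Cre and 5.16 to 6.70 CPM with GFP. Of these, 4 were under 1 CPM in every library. In Vhl cells the proximal tubule and macrophage sums overlapped. The endothelial sum was lower in WT cells, at 10.06 to 11.54 CPM with Cre and 11.74 to 12.81 CPM with GFP. The part of these markers in the results was not tested.

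Among the regulators Atf5, Ddit3 and Chac1 fell in both genotypes, with the lowest fold changes for Chac1, and Atf4 and Trib3 passed in Vhl/Rassf1a cells. In all, 4 of 6 fell in Vhl cells (median log2 fold change -0.35) and 5 of 6 in Vhl/Rassf1a cells (median -0.74). Atf4, the transcription factor at the centre of the pathway (chromosome 15, 80255184 to 80257541, plus strand, GRCm38), had 146, 157 and 151 CPM in Vhl Cre libraries, against 159, 154 and 170.4 CPM in Vhl GFP. These values overlapped and the difference did not pass (log2 fold change -0.093, SE 0.048, edgeR adjusted p = 0.147). In Vhl/Rassf1a Cre libraries Atf4 had 155, 161 and 163 CPM, against 195, 214 and 196 CPM in Vhl/Rassf1a GFP. Here every Cre library lay below every GFP library (log2 fold change -0.34, SE 0.048, edgeR adjusted p = 1.07e-05).

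Atf5, a related transcription factor that is itself controlled at translation, had 79.9, 85.7 and 91.2 CPM in Vhl Cre, against 126, 112 and 124 CPM in Vhl GFP (log2 fold change -0.49, SE 0.088, edgeR adjusted p = 9.57e-05). Vhl/Rassf1a Cre libraries had 59.1, 60.02 and 59.4 CPM of Atf5, against 94.9, 129.5 and 110.2 CPM in Vhl/Rassf1a GFP (log2 fold change -0.91, SE 0.089, edgeR adjusted p = 4.42e-08). Neither pair of groups overlapped. Ddit3 encodes CHOP, a transcription factor of prolonged stress, and had 20.1, 23.9 and 21.3 CPM in Vhl Cre, against 30.2, 25.2 and 29.6 CPM in Vhl GFP (log2 fold change -0.38, SE 0.086, edgeR adjusted p = 0.0012). Its Vhl/Rassf1a Cre libraries had 19.5, 20.5 and 19.2 CPM, against 27.1, 32.9 and 28.2 CPM in Vhl/Rassf1a GFP (log2 fold change -0.58, SE 0.086, edgeR adjusted p = 1.74e-05). Again the Cre libraries were all below the GFP libraries.

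Chac1, which degrades the antioxidant glutathione, had 3.804, 5.38 and 4.11 CPM in Vhl Cre, against 8.54, 7.08 and 9.29 CPM in Vhl GFP (log2 fold change -0.90, SE 0.16, edgeR adjusted p = 7.29e-05). It had 6.08, 6.26 and 4.75 CPM in Vhl/Rassf1a Cre, against 11.2, 16.6 and 11.5 CPM in Vhl/Rassf1a GFP (log2 fold change -1.21, SE 0.15, edgeR adjusted p = 1.20e-06), the lowest fold change of the 6 regulators in both genotypes. Trib3, a pseudokinase that restrains ATF4 and CHOP, had 11.1, 14.7 and 11.3 CPM in Vhl Cre, against 15.4, 13.9 and 16.8 CPM in Vhl GFP, where replicate 2 of Vhl Cre lay among the GFP values and the difference did not pass (log2 fold change -0.31, SE 0.13, edgeR adjusted p = 0.0675). In Vhl/Rassf1a Cre Trib3 fell to 10.4, 10.4 and 11.7 CPM, against 17.1, 23.8 and 19.9 CPM in Vhl/Rassf1a GFP, without overlap (log2 fold change -0.91, SE 0.13, edgeR adjusted p = 8.94e-06). Sesn2, a leucine sensor that restrains mTORC1, fell in Vhl cells (log2 fold change -0.24, SE 0.075, edgeR adjusted p = 0.0146) and did not pass in Vhl/Rassf1a cells (log2 fold change -0.077, SE 0.075, edgeR adjusted p = 0.485). The difference between these effects of Sesn2 was 0.16 (SE 0.11, edgeR adjusted p = 0.476), which did not pass.

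Of the serine, glycine and folate enzymes Phgdh, Psat1, Psph, Mthfd2 and Aldh1l2 fell steeply in both genotypes, and Mthfd1l rose. Of the 7, 5 fell and 1 rose in Vhl cells (median log2 fold change -0.84), and 6 fell and 1 rose in Vhl/Rassf1a cells (median -1.06). The first enzyme of serine synthesis from glycolysis, Phgdh, had 74.02, 89.05 and 84.9 CPM in Vhl Cre, against 146, 141 and 156 CPM in Vhl GFP (log2 fold change -0.84, SE 0.10, edgeR adjusted p = 7.55e-07). It had 86.2, 83.3 and 82.9 CPM in Vhl/Rassf1a Cre, against 160.3, 203 and 162 CPM in Vhl/Rassf1a GFP (log2 fold change -1.06, SE 0.10, edgeR adjusted p = 4.05e-08). No Cre library reached a GFP library in either genotype. Psat1, the aminotransferase of the next step, had 89.9, 93.2 and 94.5 CPM in Vhl Cre, against 196, 176 and 188 CPM in Vhl GFP. With Vhl/Rassf1a altered, Psat1 had 119.9, 118 and 117 CPM in Cre libraries, against 239.6, 216 and 243 CPM in Vhl/Rassf1a GFP. The groups lay far apart in both genotypes, and the log2 fold change was -1.01 in Vhl and -0.97 (SE 0.049, edgeR adjusted p = 4.20e-13) in Vhl/Rassf1a cells. Psph, the phosphatase that ends the pathway, fell in Vhl cells (log2 fold change -0.78, SE 0.078, edgeR adjusted p = 3.00e-08) and in Vhl/Rassf1a cells (log2 fold change -1.08, SE 0.077, edgeR adjusted p = 2.60e-10).

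In the mitochondrial folate pathway, which turns serine into glycine and formate, members moved in opposite directions. Mthfd2, the dehydrogenase and cyclohydrolase of its middle steps, had 29.9, 33.7 and 31.5 CPM in Vhl Cre, against 57.2, 55.5 and 58.1 CPM in Vhl GFP (log2 fold change -0.84, SE 0.051, edgeR adjusted p = 8.35e-12). It had 29.1, 30.4 and 29.1 CPM in Vhl/Rassf1a Cre, against 68.97, 74.02 and 74.3 CPM in Vhl/Rassf1a GFP (log2 fold change -1.29, SE 0.051, edgeR adjusted p = 4.74e-15). Mthfd1l, the ligase that releases formate (chromosome 10, 3973118 to 4167081, plus strand, GRCm38), had 119.6, 116 and 121 CPM in Vhl Cre, against 61.3, 54.5 and 59.4 CPM in Vhl GFP (log2 fold change 1.02, SE 0.047, edgeR adjusted p = 9.59e-14). Levels of Mthfd1l were 120.1, 120.3 and 124 CPM in Vhl/Rassf1a Cre, against 58.9, 63.6 and 58.7 CPM in Vhl/Rassf1a GFP (log2 fold change 1.01, SE 0.047, edgeR adjusted p = 1.31e-13). It was the 1 gene of the set that rose in both genotypes, and its Cre libraries were all above its GFP libraries. Aldh1l2, which oxidises formyl groups of folate to carbon dioxide, fell in Vhl cells (log2 fold change -0.90, SE 0.085, edgeR adjusted p = 1.32e-08) and in Vhl/Rassf1a cells (log2 fold change -1.17, SE 0.086, edgeR adjusted p = 4.16e-10). Shmt2, the mitochondrial enzyme that cleaves serine to glycine, did not pass in Vhl cells (log2 fold change -0.12, SE 0.085, edgeR adjusted p = 0.293) and fell in Vhl/Rassf1a cells (log2 fold change -0.31, SE 0.085, edgeR adjusted p = 0.00778), a call lost without replicate 2 of Vhl/Rassf1a GFP (log2 fold change -0.20, edgeR adjusted p = 0.0524). Under the other settings of Shmt2 the adjusted p ran from 9.97e-06 to 0.0489.

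All 4 enzymes of proline, asparagine and cysteine synthesis fell in both genotypes, with a median log2 fold change of -0.81 in each. Asns, asparagine synthetase, had 60.7, 60.2 and 58.7 CPM in Vhl Cre, against 99.4, 92.9 and 103 CPM in Vhl GFP (log2 fold change -0.72, SE 0.052, edgeR adjusted p = 1.77e-10). It had 49.5, 54.2 and 49.8 CPM in Vhl/Rassf1a Cre, against 101, 100.1 and 107 CPM in Vhl/Rassf1a GFP (log2 fold change -1.01, SE 0.052, edgeR adjusted p = 7.26e-13). The 3 Cre libraries of each genotype lay close together and far below the GFP libraries. Aldh18a1, the first enzyme of proline synthesis, had 97.02, 101 and 102 CPM in Vhl Cre, against 145, 135 and 152 CPM in Vhl GFP (log2 fold change -0.52, SE 0.059, edgeR adjusted p = 1.99e-07). Of the Vhl/Rassf1a libraries, those with Cre had 99.2, 102 and 104 CPM of Aldh18a1, against 143, 167 and 157 CPM in Vhl/Rassf1a GFP (log2 fold change -0.61, SE 0.058, edgeR adjusted p = 3.07e-08).

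Pycr1, the reductase of the last step to proline in mitochondria, had 14.2, 15.98 and 15.2 CPM in Vhl Cre, against 27.6, 26.5 and 30.4 CPM in Vhl GFP (log2 fold change -0.90, SE 0.081, edgeR adjusted p = 7.59e-09). It had 13.6, 13.1 and 13.7 CPM in Vhl/Rassf1a Cre, against 19.1, 20.9 and 20.4 CPM in Vhl/Rassf1a GFP (log2 fold change -0.59, SE 0.082, edgeR adjusted p = 8.05e-06). The Cre libraries were below the GFP libraries in both genotypes. Cth, which makes cysteine from cystathionine, had the lowest fold change of the set in Vhl cells, with means of 2.02 ± 0.263 CPM in Vhl Cre and 5.83 ± 0.196 CPM in Vhl GFP (SD, n = 3 each; log2 fold change -1.52, SE 0.15, edgeR adjusted p = 3.40e-08). In Vhl/Rassf1a cells Cth averaged 2.86 ± 0.555 CPM with Cre and 6.398 ± 1.45 CPM with GFP (SD, n = 3 each; log2 fold change -1.18, SE 0.14, edgeR adjusted p = 1.06e-06).

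**Figure D2:**
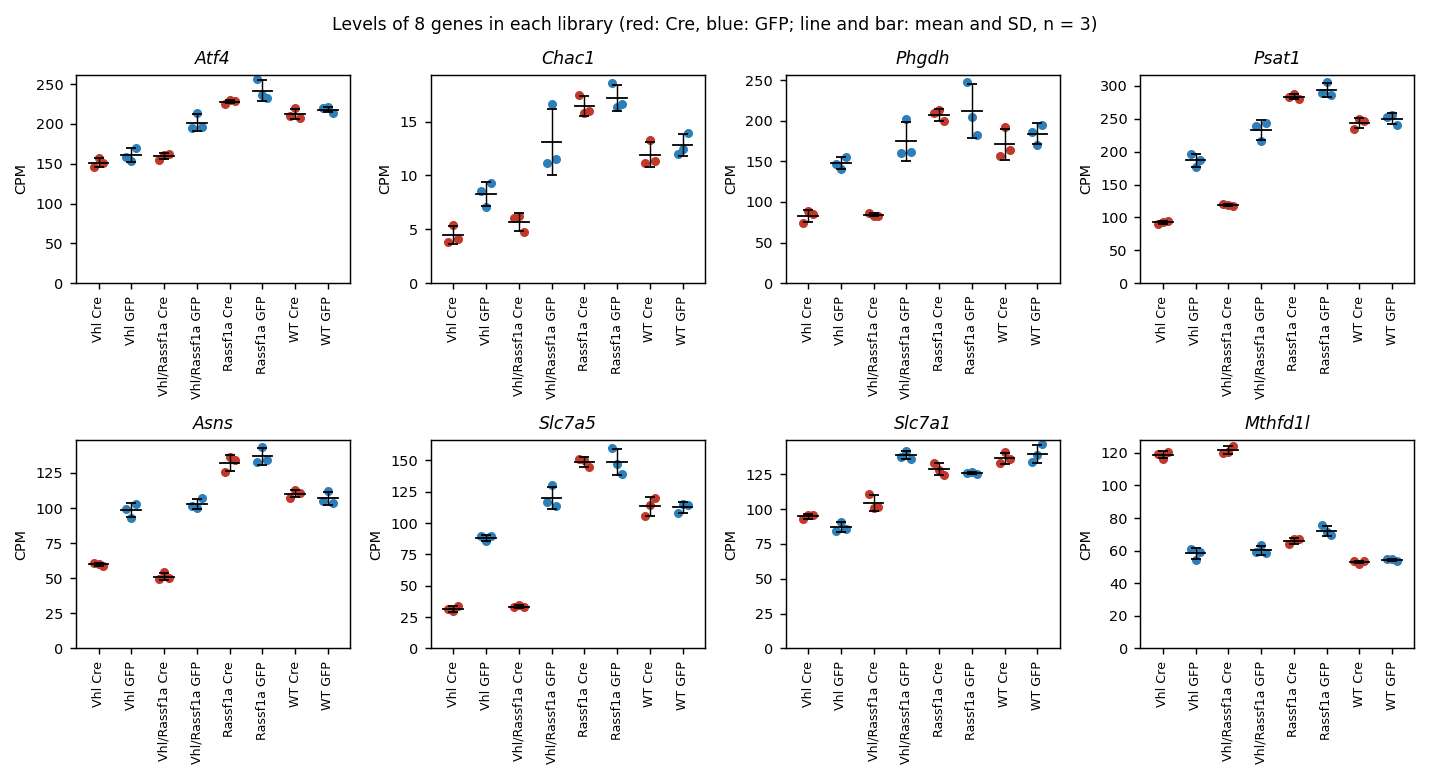
CPM of 8 genes (panels, each with its own y axis from 0) in each library, by group (x axis; Cre in red, GFP in blue); points are libraries, and lines and bars are the mean and SD of 3. Cre and GFP libraries separate for Slc7a5, with 29.5 to 33.9 CPM in Vhl Cre and 85.4 to 89.7 CPM in Vhl GFP, and lie together in Rassf1a and WT cells.

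The transporters ranged from the steep fall of Slc7a5 to small rises. Of the 7, 5 fell and 2 rose in Vhl cells (median log2 fold change -0.26), and 7 fell in Vhl/Rassf1a cells (median -0.55). Slc7a5, the light chain of the exchanger LAT1 that imports leucine and other large neutral amino acids (chromosome 8, 121881150 to 121907694, minus strand, GRCm38), had 31.3, 29.5 and 33.9 CPM in Vhl Cre, against 89.4, 85.4 and 89.7 CPM in Vhl GFP. It had 33.2, 34.3 and 32.7 CPM in Vhl/Rassf1a Cre, against 116, 130.1 and 114 CPM in Vhl/Rassf1a GFP (log2 fold change -1.85, SE 0.064, edgeR adjusted p = 5.95e-16). The 6 Cre libraries together spanned 29.5 to 34.3 CPM, far below every GFP library, and the fold change was -1.48 in Vhl cells (SE 0.064) and the lowest of the set in Vhl/Rassf1a cells. Slc3a2, the heavy chain that carries LAT1 to the membrane, changed less, with 104, 112 and 109 CPM in Vhl Cre, against 129, 125 and 134 CPM in Vhl GFP (log2 fold change -0.26, SE 0.049, edgeR adjusted p = 1.98e-04). Its Vhl/Rassf1a Cre libraries had 99.9, 97.5 and 101 CPM, against 141, 156 and 141 CPM in Vhl/Rassf1a GFP (log2 fold change -0.55, SE 0.049, edgeR adjusted p = 1.04e-08). Both pairs of groups stood apart.

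Slc1a5, the glutamine transporter ASCT2, had 17.02, 16.7 and 19.3 CPM in Vhl Cre, against 40.1, 38.5 and 40.5 CPM in Vhl GFP (log2 fold change -1.17, SE 0.073, edgeR adjusted p = 1.84e-11). It had 25.3, 26.1 and 26.7 CPM in Vhl/Rassf1a Cre, against 47.04, 57.9 and 52.01 CPM in Vhl/Rassf1a GFP (log2 fold change -1.01, SE 0.071, edgeR adjusted p = 2.09e-10). Its relative Slc1a4, which exchanges serine, alanine and cysteine, instead rose slightly in Vhl cells (log2 fold change 0.16, SE 0.043, edgeR adjusted p = 0.00508) and fell in Vhl/Rassf1a cells (log2 fold change -0.24, SE 0.043, edgeR adjusted p = 1.60e-04). The arginine and lysine carrier Slc7a1 showed the same turn, with a rise in Vhl cells (log2 fold change 0.13, SE 0.047, edgeR adjusted p = 0.0387) and a fall in Vhl/Rassf1a cells (log2 fold change -0.41, SE 0.046, edgeR adjusted p = 4.11e-07). Slc6a9, the glycine transporter GLYT1, fell in both (log2 fold change -0.68 in Vhl and -1.08 in Vhl/Rassf1a cells, edgeR adjusted p = 8.67e-06 and 2.05e-08). Slc38a2, the neutral amino acid transporter SNAT2, fell little (-0.17 in Vhl and -0.18 in Vhl/Rassf1a cells, edgeR adjusted p = 0.0292 and 0.0224), and its Cre and GFP values overlapped in Vhl/Rassf1a cells; the call was lost under 5 of 12 alternative settings in Vhl and 6 of 13 in Vhl/Rassf1a cells.

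Of the 3 tested secreted factors and other targets, Xpot passed in both genotypes. Xpot, the exporter of tRNA from the nucleus, had 133, 136 and 129 CPM in Vhl Cre, against 153, 144 and 150.2 CPM in Vhl GFP (log2 fold change -0.17, SE 0.053, edgeR adjusted p = 0.0174). It had 128, 132 and 125 CPM in Vhl/Rassf1a Cre, against 149, 133 and 155 CPM in Vhl/Rassf1a GFP (log2 fold change -0.18, SE 0.053, edgeR adjusted p = 0.0111). These groups did not overlap, but the step was small, and the call was lost under 4 of 12 alternative settings in Vhl and 5 of 13 in Vhl/Rassf1a cells. Gdf15, a secreted stress cytokine, and Eif4ebp1, the repressor of cap-dependent translation 4E-BP1, had positive fold changes that did not pass: Gdf15 had 0.37 in Vhl and 0.20 in Vhl/Rassf1a cells (edgeR adjusted p = 0.164 and 0.492). For Eif4ebp1 the values were 0.24 and 0.17 (edgeR adjusted p = 0.0603 and 0.2). Without both libraries that stood apart, both genes passed as higher in Vhl/Rassf1a cells, at 0.51 for Gdf15 and 0.35 for Eif4ebp1 (edgeR adjusted p = 0.008 and 4.45e-06). Fgf21 stayed between 0 and 0.178 CPM in all 24 libraries.

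The cytosolic tRNA synthetases attach amino acids to their tRNAs. In Vhl cells 6 of 11 fell, mostly by small steps (median log2 fold change -0.12), and in Vhl/Rassf1a cells 11 of 11 fell (median -0.36). Aars, for alanine, had 229.6, 248 and 244 CPM in Vhl Cre, against 334, 310.2 and 342 CPM in Vhl GFP (log2 fold change -0.45, SE 0.062, edgeR adjusted p = 3.54e-06). It had 213, 215 and 217 CPM in Vhl/Rassf1a Cre, against 335, 401 and 348 CPM in Vhl/Rassf1a GFP (log2 fold change -0.75, SE 0.062, edgeR adjusted p = 3.07e-09), the lowest fold change among the 11 in both genotypes. Lars, for leucine, had 124, 122 and 123 CPM in Vhl Cre, against 156, 146 and 161 CPM in Vhl GFP (log2 fold change -0.32, SE 0.044, edgeR adjusted p = 3.55e-06). Its Vhl/Rassf1a Cre libraries had 117, 122 and 114 CPM, against 168, 168 and 174 CPM in Vhl/Rassf1a GFP (log2 fold change -0.53, SE 0.044, edgeR adjusted p = 3.44e-09). For both genes the Cre and GFP libraries were separate in each genotype.

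Cars, for cysteine, had the largest difference between the 2 genotypes among the 11. It had 92.4, 99.9 and 89.2 CPM in Vhl Cre, against 98.02, 92.3 and 98.3 CPM in Vhl GFP, which overlapped (log2 fold change -0.036, SE 0.045, edgeR adjusted p = 0.586). In Vhl/Rassf1a Cre it had 86.1, 88.8 and 88.2 CPM, against 124, 131 and 126 CPM in Vhl/Rassf1a GFP, without overlap (log2 fold change -0.53, SE 0.045, edgeR adjusted p = 3.78e-09). Iars, Sars, Wars and Yars also passed in Vhl/Rassf1a cells and not in Vhl cells; Yars, for tyrosine, had -0.035 in Vhl (edgeR adjusted p = 0.704) and -0.42 in Vhl/Rassf1a cells (edgeR adjusted p = 8.93e-06). Eprs, Gars, Nars and Tars fell in both genotypes, by log2 fold changes of -0.19 (Tars) to -0.12 (Eprs) in Vhl and -0.46 (Tars) to -0.32 (Gars) in Vhl/Rassf1a cells. Aars and Tars, with the core element printed above, had log2 fold changes of -0.75 and -0.46 in Vhl/Rassf1a cells. Iars, Gars and Yars, which also hold it, ranged from -0.42 to -0.30 there. Eprs (-0.32) and Sars (-0.24) have windows without it. Cars (-0.53), Lars (-0.53), Nars (-0.36) and Wars (-0.26) had no window and could not be searched. Of the tested genes outside the synthetases, Asns, Chac1, Trib3 and Pycr1 hold the core. So does Slc1a4, which rose in Vhl cells and had -0.24 in Vhl/Rassf1a cells. The core is absent from the windows of Atf4, Atf5, Ddit3, Sesn2, Phgdh, Psat1, Psph, Shmt2, Mthfd2 and the rising gene Mthfd1l. It is also absent from those of Aldh18a1, Slc3a2, Slc7a1, Slc38a2, Slc6a9, Xpot and Gdf15. Slc7a5, Cth, Slc1a5, Aldh1l2 and Eif4ebp1 had no window either.

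**Figure D3:**
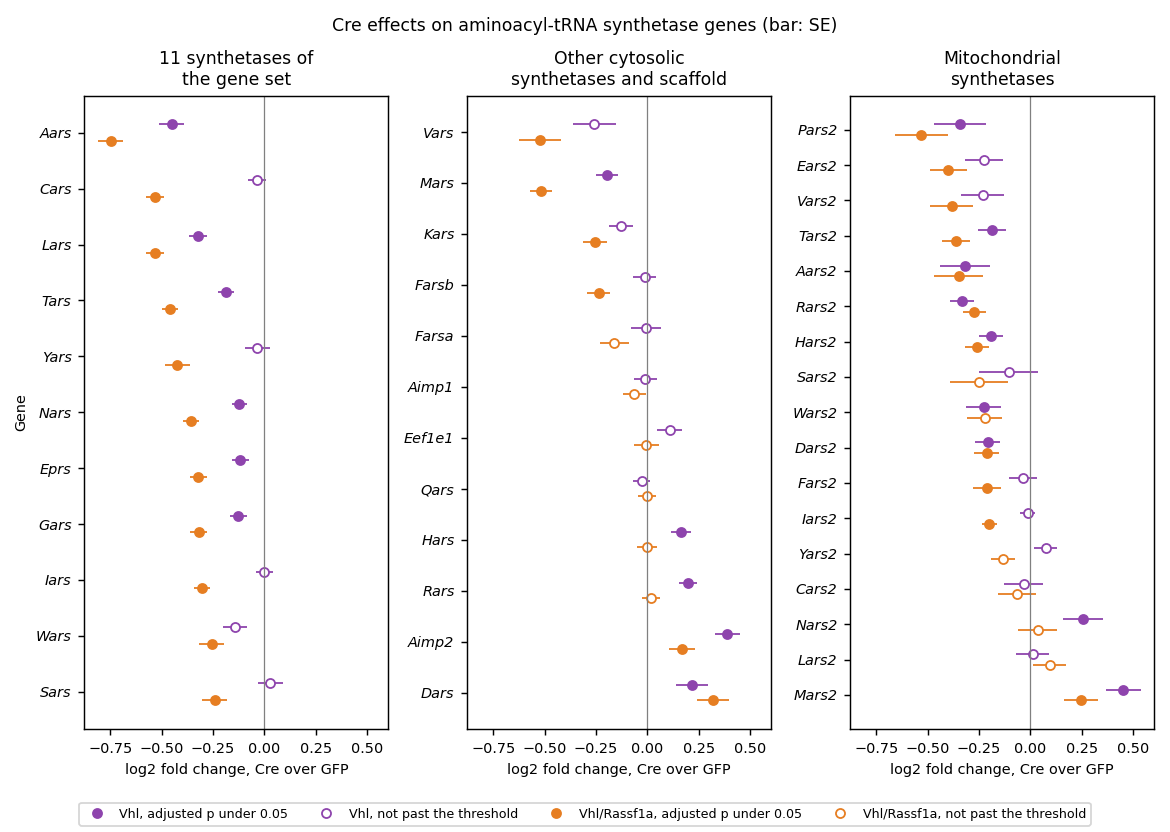
Log2 fold change of Cre over GFP (x axis, bars of 1 SE) for the 11 synthetases of the set, the other cytosolic synthetases and scaffold proteins, and the mitochondrial synthetases, in Vhl and Vhl/Rassf1a cells; filled points passed adjusted p under 0.05. All 11 lie left of 0 and are filled in Vhl/Rassf1a cells, whereas 2 of 12 other cytosolic genes there passed as higher and 4 as lower.

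The Cre effect was set against the WT Cre effect and between the 2 genotypes in the same model. In Vhl cells the effect minus that of WT cells was lower for 21 genes and higher for 1, where 12.5% of all tested genes were lower and 10.7% higher (23.2% in all). In Vhl/Rassf1a cells it was lower for 30 and higher for 1, where 7.4% and 7.41% were (14.8% in all); without both libraries that stood apart, 32 were lower and 2 higher. Slc38a2 and Xpot, called within both genotypes, did not pass against WT cells in either (edgeR adjusted p = 0.337 and 0.0585 in Vhl, 0.322 and 0.0543 in Vhl/Rassf1a cells), nor did Eprs and Nars in Vhl cells or Shmt2 and Sars in Vhl/Rassf1a cells. Nor did the rises of Slc7a1 and Slc1a4 in Vhl cells pass against WT cells, with differences of 0.16 (SE 0.066, edgeR adjusted p = 0.0901) and 0.13 (SE 0.061, edgeR adjusted p = 0.158). Mthfd1l remained higher, with a difference of 1.06 (SE 0.067, edgeR adjusted p = 6.95e-11) in Vhl and 1.05 (SE 0.067, edgeR adjusted p = 1.11e-10) in Vhl/Rassf1a cells. Both sets of differences use the WT libraries.

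Between the 2 genotypes the Cre effect was more negative in Vhl/Rassf1a cells for 15 of 38 genes and less negative for 0, where 2.65% of all tested genes were lower and 3.44% higher (6.09% in all). At an unadjusted p under 0.05, edgeR had 1 gene higher, and DESeq2 had 0 higher at adjusted p under 0.05. Leaving out both libraries that stood apart, 18 genes were lower, all 15 among them, and 3 higher (Sesn2, Pycr1 and Slc1a5). Synthetases made up 8 of the 15, and the others were Atf4, Mthfd2, Asns, Slc7a5, Slc3a2, Slc7a1 and Slc1a4. Over 19 alternative settings, the calls of Eprs and Gars were lost under 13 each, that of Aars under 11, Atf4 under 8, Asns under 4, and Slc7a5, Nars and Tars under 1 each, with adjusted p of up to 0.286 for Gars, 0.215 for Eprs and 0.113 for Aars. The calls of Cars, Iars, Yars, Mthfd2, Slc3a2, Slc7a1 and Slc1a4 held under all 19. Cars had a difference of -0.50 (SE 0.063, edgeR adjusted p = 4.46e-05), Slc7a1 of -0.53 (SE 0.066, edgeR adjusted p = 3.09e-05) and Mthfd2 of -0.45 (SE 0.071, edgeR adjusted p = 3.25e-04). Psat1, with a difference of 0.038 (SE 0.069, edgeR adjusted p = 0.841), and Mthfd1l, with -0.015 (SE 0.066, edgeR adjusted p = 0.943), were not shown to differ. The Cre comparisons of the 2 genotypes share no library. Across the 38 genes their fold changes ran with a Pearson correlation of 0.913, and genes are not independent of each other. The GFP levels were not alike in the 2 genotypes. Against WT GFP, the median log2 ratio of the 38 genes was -0.19 in Vhl GFP and -0.00065 in Vhl/Rassf1a GFP. With Cre it was -0.40 in Vhl and -0.47 in Vhl/Rassf1a cells. For the 11 synthetases these medians were -0.21 and 0.0052 with GFP, and -0.36 and -0.37 with Cre. A more negative effect thus need not mean a lower level with Cre. Of the 38 genes 24 fell in both genotypes and 1 rose in both, at adjusted p under 0.05. Another 10 fell in Vhl/Rassf1a cells and not in Vhl cells, and 2 of these 10, Slc7a1 and Slc1a4, rose in Vhl cells. Only 1, Sesn2, fell in Vhl cells alone, and Gdf15 and Eif4ebp1 passed in neither genotype.

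**Figure D4:**
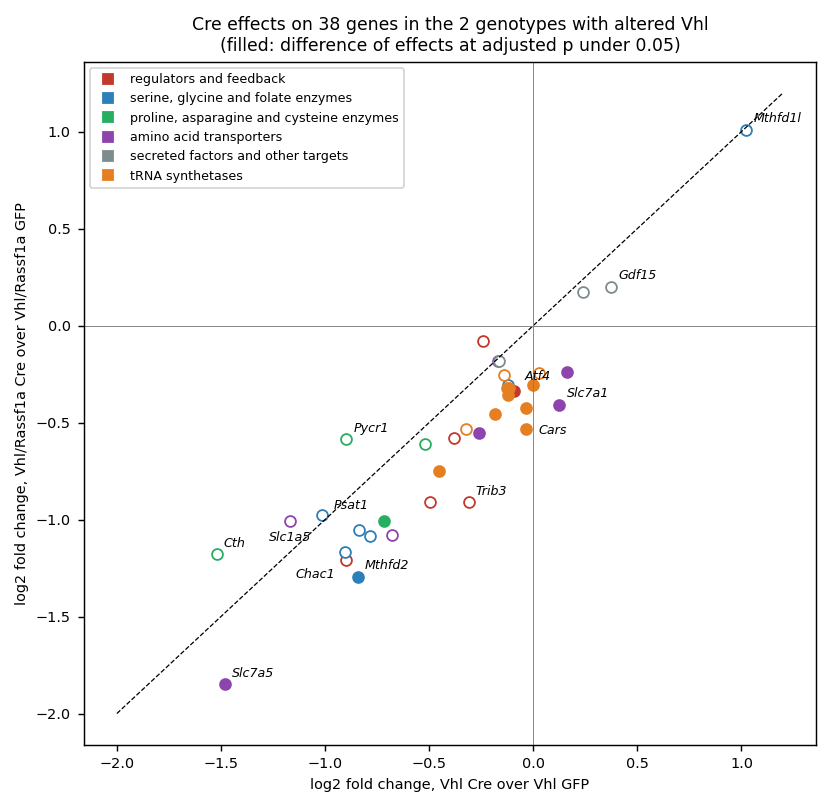
Log2 fold change of Cre over GFP in Vhl/Rassf1a cells (y axis) against that in Vhl cells (x axis) for 38 genes, coloured by role; the dashed line marks equal values, and filled points are the 15 genes whose effects differed at adjusted p under 0.05. In 33 of 38 genes the Vhl/Rassf1a value is the more negative.

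In Rassf1a and WT cells no gene of the set passed. Rassf1a Cre against Rassf1a GFP gave 0 calls by edgeR, 2 genes lower and 0 higher at an unadjusted p under 0.05 (Slc6a9 and Mthfd1l), and 0 calls by DESeq2, where 0.392% of all tested genes passed edgeR's threshold. WT Cre against WT GFP gave 0 calls by edgeR, 0 at an unadjusted p under 0.05 and 0 by DESeq2, where 1.26% of all tested genes passed. Log2 fold changes ranged from -0.22 (Slc6a9) to 0.29 (Gdf15) in Rassf1a cells and from -0.11 (Phgdh) to 0.28 (Gdf15) in WT cells. Slc7a5 had 151, 150.0 and 144 CPM in Rassf1a Cre, against 159.8, 147 and 139 CPM in Rassf1a GFP. In WT Cre it had 105, 114 and 120.2 CPM, against 108, 115 and 114 CPM in WT GFP. Values of Cre and GFP were mixed in both genotypes. For Mthfd1l the Rassf1a Cre libraries had 64.1, 67.1 and 67.4 CPM, against 75.6, 71.6 and 69.5 CPM in Rassf1a GFP, which did not overlap but did not pass (log2 fold change -0.13, SE 0.047, edgeR adjusted p = 0.528). Values did not overlap for 15.8% of the 38 genes in Rassf1a and 5.26% in WT cells, where 10.7% and 15% of all tested genes had no overlap. The Rassf1a effect minus the WT effect gave 0 calls by edgeR, at an unadjusted p under 0.05 and by DESeq2, where 0.00603% of all tested genes passed.

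The GFP cells of the genotypes also differed from those of WT. In Rassf1a GFP cells 25 genes were higher and 3 lower than in WT GFP cells (median log2 fold change 0.23), where 9.39% of all tested genes were higher and 6.68% lower. Without both libraries that stood apart, 25 were higher and 3 lower (median 0.19), with 23 of the higher genes shared: Atf4 and Mthfd2 no longer passed (edgeR adjusted p = 0.104 and 0.052), while Slc38a2 and Iars did. With only the groups compared in the fit, 15 were higher and 0 lower. The higher genes were 5 of 6 regulators (4 without both libraries), 8 of 11 synthetases (9), 5 of 7 serine and folate enzymes (4) and 3 of 4 of the proline, asparagine and cysteine group (3). Trib3 had 40.3, 34.8 and 32.4 CPM in Rassf1a GFP, against 18.2, 20.1 and 21.1 CPM in WT GFP (log2 fold change 0.86, SE 0.12, edgeR adjusted p = 2.20e-05). Aldh1l2 had 104, 122 and 124 CPM in Rassf1a GFP, against 68.04, 77.9 and 61.04 CPM in WT GFP (log2 fold change 0.76, SE 0.083, edgeR adjusted p = 5.64e-07). Asns had 133, 144 and 134 CPM in Rassf1a GFP, against 105, 112 and 104 CPM in WT GFP (log2 fold change 0.36, SE 0.051, edgeR adjusted p = 1.94e-05). None of these 3 genes overlapped between the groups. The 3 lower genes were Gdf15 (-0.63), Slc1a5 (-0.21) and Slc7a1 (-0.15), with edgeR adjusted p = 0.0392, 0.0489 and 0.027, and the values of Gdf15 overlapped. Marker sums moved here too, without overlap: the fibroblast list stood at 45460 to 52900 CPM in Rassf1a GFP and 39540 to 42870 CPM in WT GFP. Lower were the cartilage list (137.8 to 202.7 CPM in Rassf1a GFP and 299.3 to 389.8 CPM in WT GFP) and epithelium (44.5 to 64.4 in Rassf1a GFP and 76.3 to 94.9 in WT GFP). So were endothelium (6.36 to 8.32 in Rassf1a GFP and 11.7 to 12.8 in WT GFP), skeletal muscle (139.9 to 170.8 in Rassf1a GFP and 214.5 to 270.1 in WT GFP) and neural markers (283.9 to 316.8 in Rassf1a GFP and 397.4 to 443.4 in WT GFP). Their part was not tested.

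Vhl GFP cells lay on the other side, with 18 genes lower and 2 higher than in WT GFP cells (median log2 fold change -0.19), where 14.9% of all tested genes were lower and 17.2% higher. Slc7a1 had 84.2, 91.01 and 85.8 CPM in Vhl GFP, against 134, 139 and 147 CPM in WT GFP (log2 fold change -0.68, SE 0.047, edgeR adjusted p = 1.20e-10). Atf4 had 159, 154 and 170.4 CPM in Vhl GFP, against 219.6, 221 and 214 CPM in WT GFP (log2 fold change -0.44, SE 0.048, edgeR adjusted p = 2.61e-07). Both genes were lower in all 3 Vhl GFP libraries than in any WT GFP library. Pycr1 was higher instead, with 27.6, 26.5 and 30.4 CPM in Vhl GFP, against 17.9, 18.6 and 19.3 CPM in WT GFP (log2 fold change 0.60, SE 0.081, edgeR adjusted p = 4.00e-06). Lars was the other higher gene, by a step of 0.13 with overlapping values (edgeR adjusted p = 0.0296). Among the lower genes were Chac1 (-0.62), Mthfd2 (-0.50), Psat1 (-0.42), Slc7a5 (-0.35) and 7 of the 11 synthetases. In Vhl/Rassf1a GFP cells 3 genes were higher, Lars (0.27), Eprs (0.16) and Mthfd1l (0.15), and Mthfd2 was lower (-0.15), where 6.86% of all tested genes were higher and 4.68% lower. Without both libraries that stood apart, 3 genes were higher and 4 lower there. Mthfd1l no longer passed (0.11, edgeR adjusted p = 0.136), Slc38a2 did (0.22), and Atf4, Sesn2 and Gdf15 joined Mthfd2 as lower. The call of Mthfd1l was lost under 10 of 13 alternative settings, and those of Eprs and Mthfd2 under 5 each. Against WT GFP, the marker sums of Vhl GFP moved without overlap for fibroblasts (57230 to 59560 CPM in Vhl GFP and 39540 to 42870 CPM in WT GFP) and cartilage (639.1 to 781.9 in Vhl GFP and 299.3 to 389.8 in WT GFP), which were higher. They were lower for epithelium (37.8 to 38.9 CPM in Vhl GFP and 76.3 to 94.9 CPM in WT GFP) and endothelium (5.55 to 6.75 in Vhl GFP and 11.7 to 12.8 in WT GFP). Also lower were proximal tubule (187.1 to 228.1 in Vhl GFP and 312.2 to 348.8 in WT GFP), skeletal muscle (134.1 to 151.5 in Vhl GFP and 214.5 to 270.1 in WT GFP) and neural markers (352.2 to 372.9 in Vhl GFP and 397.4 to 443.4 in WT GFP). In Vhl/Rassf1a GFP only the macrophage list was apart, at 5.16 to 6.70 CPM, against 6.85 to 8 CPM in WT GFP. Their part was not tested. Values of the GFP groups did not overlap with WT GFP for 81.6% of the 38 genes in Rassf1a, 68.4% in Vhl and 15.8% in Vhl/Rassf1a cells, against 27.8%, 48.5% and 22.8% of all tested genes. The 3 comparisons share the WT GFP libraries, and the Vhl and Vhl/Rassf1a GFP libraries also serve the Cre comparisons.

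**Figure D5:**
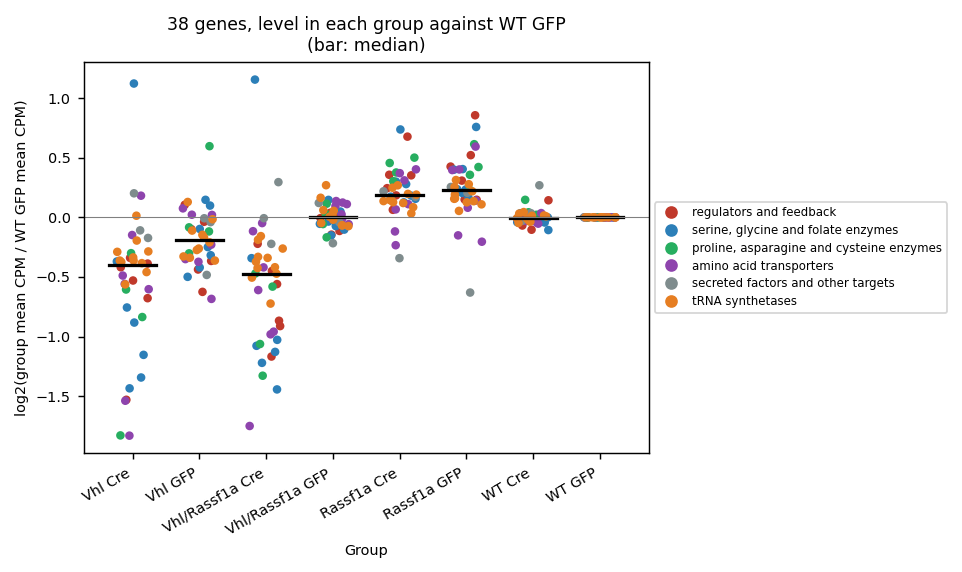
Log2 ratio of each group's mean CPM to that of WT GFP (y axis) for 38 genes (points, coloured by role) in the 8 groups (x axis); bars are medians. The median lies at -0.40 in Vhl Cre and -0.19 in Vhl GFP, -0.47 in Vhl/Rassf1a Cre and near 0 in Vhl/Rassf1a GFP, 0.19 in Rassf1a Cre and 0.23 in Rassf1a GFP.

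Across the 8 groups the lowest mean was in Vhl/Rassf1a Cre for 22 of the 38 genes and in Vhl Cre for 12. The highest was in Rassf1a GFP for 25 and in Rassf1a Cre for 6. These means include both libraries that stood apart, and all tested genes were not counted in this way. The set's median deviation was 0.12 log2 units in replicate 1 of Rassf1a GFP. Its median log2 fold change of Rassf1a Cre over Rassf1a GFP was -0.036 with both libraries and -0.0064 without them. Per length, as CPM divided by kilobases of annotated exon, the highest levels averaged over 24 libraries were those of Gars (89.2 CPM per kilobase), Atf4 (83.4), Nars (75.6) and Phgdh (63.6). The lowest tested levels were those of Psph (3.45 CPM per kilobase), Slc6a9 (2.46) and Cth (2.26). Between the highest and the lowest group mean, Cth spanned 4.88-fold, Slc7a5 4.71-fold, Aldh1l2 3.94-fold and Chac1 3.88-fold. Slc38a2 spanned 1.22-fold and Eif4ebp1 1.26-fold. Synthetases spanned 1.31-fold (Wars) to 2.05-fold (Aars).

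Genes next to the set in the pathway moved less uniformly. Of 106 related genes in 6 lists, 38 fell and 17 rose in Vhl cells, and 50 fell and 11 rose in Vhl/Rassf1a cells. As shares, 35.8% fell and 16% rose in Vhl cells, beside 18.7% and 17.4% of all tested genes, and 47.2% fell and 10.4% rose in Vhl/Rassf1a cells, beside 14.8% and 14.9%. With both libraries that stood apart left out, 53 fell and 10 rose in Vhl/Rassf1a cells. Of 15 eIF2 kinases, phosphatase subunits and partner factors, 4 fell and 4 rose in Vhl cells and 7 fell and 3 rose in Vhl/Rassf1a cells. In the latter 6 fell and 4 rose when both libraries were left out. Cebpb, a C/EBP factor that dimerises with ATF4, fell in Vhl (-0.79) and Vhl/Rassf1a cells (-0.41), and Ppp1r15a, the GADD34 subunit that directs eIF2 dephosphorylation, rose in both (0.44 and 0.29). Of 12 other cytosolic synthetases and scaffold proteins, 1 fell and 4 rose in Vhl cells and 4 fell and 2 rose in Vhl/Rassf1a cells (medians -0.01 and -0.03). The Vhl/Rassf1a counts were the same when both libraries were left out. Mars, for methionine, fell in Vhl (-0.20) and Vhl/Rassf1a cells (-0.52), whereas Aimp2, a scaffold protein of the synthetase complex, rose in both (0.39 and 0.17). Of 17 mitochondrial synthetases, 7 fell and 2 rose in Vhl cells and 10 fell and 1 rose in Vhl/Rassf1a cells (medians -0.19 and -0.22). Leaving out both libraries, 9 fell and 0 rose in Vhl/Rassf1a cells.

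Of 17 other amino acid transporters, 10 fell and 3 rose in Vhl cells and 11 fell and 2 rose in Vhl/Rassf1a cells (medians -0.41 and -0.28). Leaving out both libraries that stood apart, 12 fell and 1 rose in Vhl/Rassf1a cells. Slc7a2, a carrier of arginine and lysine, fell in Vhl cells (log2 fold change -1.38, SE 0.13, edgeR adjusted p = 8.93e-09) and did not pass in Vhl/Rassf1a cells (log2 fold change -0.20, SE 0.12, edgeR adjusted p = 0.223), and the difference between these effects was 1.17 (SE 0.17, edgeR adjusted p = 1.71e-04). Slc7a2 passed as lower in Vhl/Rassf1a cells once both libraries that stood apart were left out (-0.30, edgeR adjusted p = 0.03) and the difference was 1.08 (edgeR adjusted p = 1.55e-05). Slc1a3, a glutamate transporter, fell in Vhl (-1.19) and Vhl/Rassf1a cells (-0.81). Of 25 other enzymes of serine, glycine, folate and proline metabolism and neighbouring reactions, 11 fell and 1 rose in Vhl cells and 10 fell and 2 rose in Vhl/Rassf1a cells (medians -0.19 and -0.27); without both libraries that stood apart, 12 fell and 2 rose in Vhl/Rassf1a cells, with a median of -0.11. Bcat1, which transfers the amino group of leucine and its relatives, fell in both (-0.60 and -0.67), as did Gpt2, the mitochondrial alanine aminotransferase (-0.75 and -0.89). The 20 chaperones and sensors of the endoplasmic reticulum belong to the other main route to eIF2 phosphorylation. Of these, 5 fell and 3 rose in Vhl cells and 8 fell and 1 rose in Vhl/Rassf1a cells. The medians were -0.05 and -0.08, nearer 0 than those of the 39-gene set. The 25% lower and 15% higher in Vhl cells lie close to the shares over all tested genes. In Vhl/Rassf1a cells 40% were lower and 5% higher, against 14.8% and 14.9% of all tested genes. There 10 fell and 1 rose once both libraries that stood apart were left out.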

How the data were processed

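RNA-seq libraries of 24 mouse embryonic fibroblast samples were analysed in 8 groups of 3, with groups and replicate numbers taken from the sample titles. The series' design note names single kidney tubule cells instead; the labels of the samples were used. Raw counts of reads for 45706 Ensembl gene IDs, whole numbers that sum to 29934173 to 55849586 per library, were deposited by the authors as 1 table. Per the labels' protocols, RNA isolation used a NucleoSpin kit and library preparation TruSeq Stranded reagents. Trimmomatic 0.38, STAR 2.5.2b and GRCm38 are named in the submitters' processing notes; neither the counting tool nor its annotation or strand setting is given in the sources used here. GENCODE M21 named 45143 IDs and left 563 unnamed. All columns were sample columns.

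Counts were tested with edgeR 4.0.16 (R 4.3.3): filterByExpr (minimum count 10, total 15) kept 16573 genes, TMM scaled the libraries, and a quasi-likelihood fit of 8 group means (16 residual degrees of freedom, biological variation 7.73%) gave 11 comparisons. P-values were adjusted by Benjamini-Hochberg over all tested genes within each comparison, with a threshold of 0.05. The SE is the absolute log2 fold change over the square root of F. Alternatives were DESeq2 1.42.0 (test and size factors), no filter, the replicate number as a block, only the groups compared, each library left out, 2 libraries left out, and offsets corrected for GC content, which was added after seeing the data. The fit was tested on simulated counts. Replicates differed by more than counting noise (chi-square per degree of freedom 2.93 or more).

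Values of every library were given for Atf4, Atf5, Ddit3, Phgdh, Asns, Slc7a5 and the 3 genes per role with the smallest adjusted p in Vhl or Vhl/Rassf1a cells; of the related lists, up to 4 genes each by adjusted p in Vhl cells and 2 in other comparisons. Genes and lists were chosen with earlier results of these data known. Of the promoter matches, 1 is not reported here.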

Additional observations from a re-analysis of the deposited data

Results flagged for a closer look

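The Cre effect differed between genotypes for many of the genes, by the test of the difference itself in edgeR. Against WT cells, the effect differed for 22 of 38 genes in Vhl cells, where 23.2% of all tested genes differed. In Vhl/Rassf1a cells it differed for 31, beside 14.8% of all tested genes. Between Vhl/Rassf1a and Vhl cells it differed for 15, all more negative in Vhl/Rassf1a cells, beside 6.09% of all tested genes. The GFP levels under these effects were not alike. Against WT GFP, the 38 genes had a median log2 ratio of -0.19 in Vhl GFP and -0.00065 in Vhl/Rassf1a GFP. With Cre the medians were -0.40 in Vhl and -0.47 in Vhl/Rassf1a cells.

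As differences of log2 fold changes, Vhl/Rassf1a minus Vhl, the synthetases were at -0.30 for Aars, -0.50 for Cars, -0.20 for Eprs, -0.19 for Gars, -0.30 for Iars, -0.24 for Nars, -0.27 for Tars and -0.39 for Yars. The transporters were at -0.36 for Slc7a5, -0.29 for Slc3a2, -0.53 for Slc7a1 and -0.40 for Slc1a4. Atf4 was at -0.24, Mthfd2 at -0.45 and Asns at -0.29. These calls were not equally firm: over 19 alternative settings, those of Eprs and Gars were lost under 13 each, Aars under 11, Atf4 under 8, Asns under 4, and Slc7a5, Nars and Tars under 1 each.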

How the results depend on the processing

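No call of the 11 comparisons reversed under any alternative. Counts of lower genes in Vhl and Vhl/Rassf1a cells stayed within 1.5 times of 25 and 34 under every setting. With only the groups compared, 5 genes were higher in Vhl cells (3 in the full model), 2 in Vhl minus WT (1), 1 in Vhl GFP (2) and 0 in Vhl/Rassf1a GFP (3), with 0 lower there (1), and 15 were higher and 0 lower in Rassf1a GFP (25 and 3). With no filter, 2 were higher in Vhl minus WT, 1 in Vhl GFP and 1 in Vhl/Rassf1a GFP, with 0 lower there. GC-corrected offsets, added after seeing the data, gave 5 higher in Vhl, 2 in Vhl/Rassf1a, 1 in WT (0), 2 in Vhl minus WT, 2 in Vhl/Rassf1a minus Vhl (0), 5 in Vhl GFP and 3 lower in Vhl/Rassf1a GFP. Without both libraries that stood apart, 3 were higher in Vhl/Rassf1a (1), 2 in Vhl/Rassf1a minus WT (1), 3 in Vhl/Rassf1a minus Vhl (0), and 4 were lower in Vhl/Rassf1a GFP (1). The cause was not tested.

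Leaving out 1 library at a time gave 2 to 4 higher and 19 to 26 lower in Vhl (19 without Vhl GFP replicate 3), 1 to 3 and 32 to 33 in Vhl/Rassf1a (3 without Vhl/Rassf1a GFP replicate 2), 0 and 0 in Rassf1a and WT, 1 to 2 and 18 to 21 in Vhl minus WT, and 1 to 2 and 29 to 31 in Vhl/Rassf1a minus WT. Vhl/Rassf1a minus Vhl gave 0 and 10 to 17 (10 without Vhl GFP replicate 2). The GFP comparisons with WT gave 1 to 3 and 15 to 18 in Vhl, 1 to 3 and 0 to 3 in Vhl/Rassf1a, and 18 to 28 and 0 to 3 in Rassf1a (18 without Rassf1a GFP replicate 2).

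Replicate numbers did not pair the samples: same-numbered Cre and GFP libraries had correlations of deviations from -0.379 to 0.203, and 4, 0, 3 and 1 of 6 libraries matched their own number best in Vhl, Vhl/Rassf1a, Rassf1a and WT cells. With the replicate number as a block, Vhl had 3 higher and 25 lower, Vhl/Rassf1a 1 and 34, and 1 gene was lower in Rassf1a GFP (3 without the block). Small steps depended on the setting: in Vhl cells Trib3, Sesn2, Slc7a1, Slc1a4, Slc38a2, Xpot, Gdf15, Eif4ebp1, Eprs, Gars, Nars and Wars passed under some settings only. Calls were also lost elsewhere. In Vhl/Rassf1a cells, of 13 settings, Slc38a2 lost its call under 6, Xpot under 5 and Shmt2 under 1. In Vhl minus WT, of 18, Gars lost it under 8, Tars 7, Ddit3 4 and Slc3a2 1, and in Vhl/Rassf1a minus WT, of 19, Wars under 6 and Slc1a4 under 1. In Vhl/Rassf1a minus Vhl, of 19, Eprs and Gars lost it under 13, Aars 11, Atf4 8, Asns 4, and Slc7a5, Nars and Tars 1. In Vhl GFP, of 12, Lars lost it under 5, Shmt2 and Trib3 4, Phgdh 3 and Eprs 1, and in Vhl/Rassf1a GFP, of 13, Mthfd1l under 10, Eprs and Mthfd2 5 and Lars 1. In Rassf1a GFP, of 13, Atf4 lost it under 9, Mthfd2 8, Slc1a5 and Tars 6, Chac1, Gdf15 and Nars 5, Slc7a1 4, Ddit3, Gars and Xpot 3, Lars and Sars 2 and Cars 1. Chac1 and Cth, under 20 CPM throughout, had SEs of 0.14 to 0.16 against 0.037 to 0.10 for most others.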

Other observations

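In Rassf1a GFP cells, 8 of 20 chaperones and sensors of the endoplasmic reticulum were also higher than in WT GFP cells and 0 were lower (edgeR). Of all tested genes 9.39% were higher. At an unadjusted p under 0.05 edgeR had 9 of the 20 higher and 1 lower. DESeq2 had 8 higher and 0 lower at adjusted p under 0.05. Pdia4, a disulfide isomerase, was higher by 0.16 on the log2 scale (edgeR adjusted p = 0.00199) and Calr, the lectin chaperone calreticulin, by 0.14 (edgeR adjusted p = 0.0026). Of 15 eIF2 kinases, phosphatase subunits and partner factors, 4 were higher, among them Nupr1, a small stress-induced chromatin protein, at 0.40 (SE 0.079, edgeR adjusted p = 8.72e-04), and Eif2ak3, the kinase PERK, at 0.23 (SE 0.046, edgeR adjusted p = 9.71e-04). The related transporters moved both ways there, with 3 of 17 higher and 2 lower. Slc7a8, the light chain LAT2 that also pairs with Slc3a2, was lower by a log2 fold change of -2.35 (SE 0.21, edgeR adjusted p = 2.21e-08). Bcat1 was higher by 0.38 (SE 0.046, edgeR adjusted p = 2.58e-06) and Gpt2 by 0.65 (SE 0.077, edgeR adjusted p = 1.40e-06). Without both libraries that stood apart, 9 of the 20 chaperones and sensors were higher and 0 lower, 7 of the 15 kinases, subunits and partners were higher and 1 lower, and 4 of the 17 transporters were higher and 2 lower. Pdia4 (0.18), Calr (0.14), Nupr1 (0.36), Eif2ak3 (0.24), Slc7a8 (-2.30), Bcat1 (0.35) and Gpt2 (0.65) still passed.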
